A study of Xenopus laevis with 8 samples.

Results

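The elovl genes encode the elongases of very long chain fatty acids, and 11 of the 51017 gene IDs counted in Xenopus laevis animal cap explants carry an elovl symbol. The members were chosen by name: every ID whose symbol in the authors' symbol table, split at the character that joins its parts, has a part that begins with elovl. They are elovl1.L, elovl1.S, elovl2.L, elovl3.L, elovl3.S, elovl4.S, elovl5.L, elovl5.S, elovl6.L, elovl7.L and elovl7.S, where L and S mark the copies (homeologs) on the long and the short chromosomes of this allotetraploid frog. The family was picked because elovl3.L has one of the largest rises between stage 9 and stage 10.5. The values of elovl3.L in comparisons with stage 9 or stage 10.5 are therefore given as a description, with no test.

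An elongase adds a malonyl unit to an activated fatty acid in the endoplasmic reticulum, and a reductase, a dehydratase and a second reductase complete each cycle. The family members differ in the chain length and the saturation of the acids they prefer. In mammals, products of several of them go into membrane sphingolipids, the lipid barrier of the skin and the secretions of skin glands.

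The explants came from wild type, untreated embryos. The animal cap, the prospective ectoderm at the animal pole, was cut at stage 8 and cultured in saline, where it forms an epidermis with mucus-secreting and multiciliated cells. RNA was taken at the end of blastula (stage 9), early in gastrulation (stage 10.5), at stage 11.5 and late in gastrulation (stage 12.5), with 2 libraries of poly-A selected RNA each, called replicates A and B after the letter in their titles. All 4 groups share the genotype and the control treatment and differ in their labels by stage alone. Time since cutting and time in culture rise with stage and cannot be told apart from it. The labels do not say what a letter stands for, how many explants were pooled or whether the letters are separate clutches, so p-values measure only the spread between these libraries.

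Total counts lay between 33170889 and 45511790 a library. Levels are given as CPM, the counts of a gene per 1e6 counts of its scaled library, and a floor of 3 counts corresponds to 0.0604 to 0.0980 CPM. CPM is not corrected for transcript length, so levels are compared within a gene over stages, and shares of the family are shares of reads. The labelled tissue was checked with marker lists. The 28 IDs of ectoderm and epidermis summed to 2464 and 2461 CPM in replicates A and B at stage 9 and to 15283 and 11414 CPM at stage 12.5, with none at 0 in both libraries of a stage. The 14 endoderm IDs summed to 29.0 and 19.2 CPM at stage 9 and to 14.9 and 10.3 CPM at stage 12.5. The 16 neural IDs stood higher, at 1029 and 1051 CPM at stage 9 and 847 and 851 CPM at stage 12.5. The 20 mesoderm IDs differed between the letters, with 98.1 CPM in A against 234 in B at stage 10.5 and 37.2 against 161 at stage 12.5. The part of these lists in the results that follow was not tested. In bulk tissue, fewer cells of a type and less RNA per cell cannot be told apart.

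elovl3.L (gene6002) went from near the detection floor at stage 9 to 107 CPM at stage 10.5. Its mammalian counterpart ELOVL3 elongates saturated and monounsaturated acids and is known from skin glands and brown fat. At stage 9 the libraries held 17 and 6 counts, or 0.355 and 0.121 CPM in A and B. At stage 10.5 they held 4301 and 3481 counts, or 126 and 87.5 CPM. Both later values lie far above both earlier ones, and the rise was 355-fold within letter A and 724-fold within letter B.

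The values of elovl3.L at stage 11.5 were 145 CPM in A and 115 CPM in B. Those at stage 12.5 were 205 and 202 CPM. Stage means ± SD (n = 2) were 0.238 ± 0.166, 107 ± 27.4, 130 ± 20.9 and 203 ± 2.04 CPM. In order of level the stages stand as 12.5, 11.5, 10.5 and 9, and the libraries of stages 10.5 and 11.5 overlap while no others of neighbouring stages do. Overlap was not counted over all tested IDs, so here and below it is a description. The fitted log2 change at the first step was 8.80 ± 0.42 (SE), which ranks 58 by size of rise among the 28490 IDs tested. The log2 change from stage 10.5 to 11.5 was 0.28 ± 0.27.

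The step from stage 11.5 to 12.5 was not used to choose the gene and was tested. The log2 change of elovl3.L was 0.64 ± 0.27, and its adjusted p was 0.333 when edgeR was fitted by stage (quasi-likelihood F test) and 0.0718 with the replicate letter as a block. DESeq2 with the block gave 0.69 with an adjusted p of 0.0289, which passes the threshold. No other alternative called elovl3.L at this step, DESeq2 by stage among them. Both libraries of stage 12.5 stood above both of stage 11.5, by 1.41 times within A and 1.75 times within B. The interval of the log2 change ran from 0.0038 to 1.29 (95%, not adjusted).

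**Figure D1:**
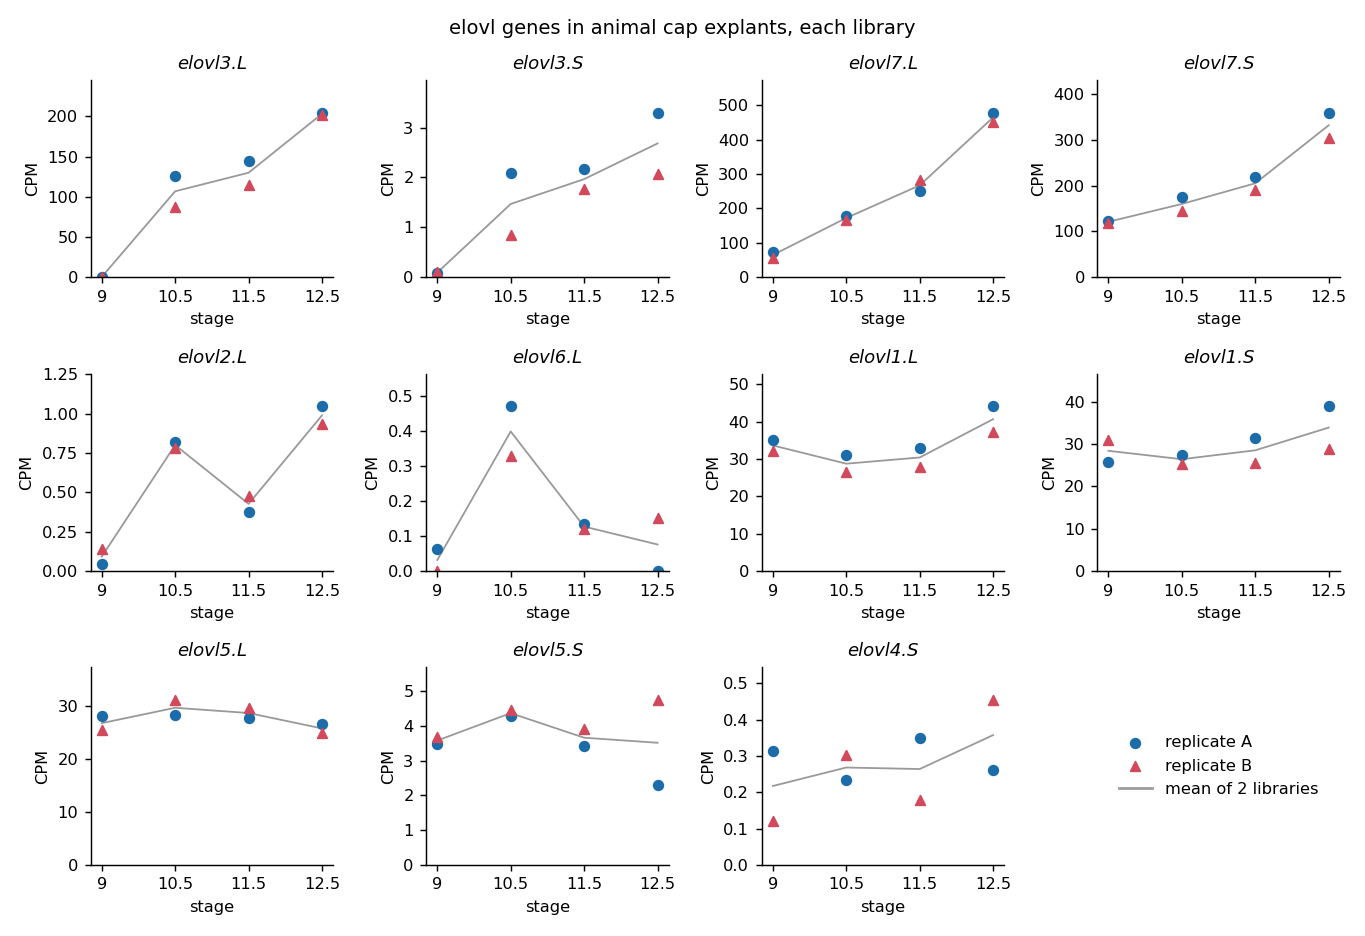
CPM (y axis, linear, from 0, with its own scale in each panel) of the 11 elovl genes at the 4 stages (x axis), with replicate A as circles, replicate B as triangles and a line through the mean of 2 libraries. elovl3.L leaves 0.238 CPM at stage 9 for 107 CPM at stage 10.5, elovl7.L climbs at every stage from 64.5 to 465 CPM, and elovl5.L stays between 24.9 and 31.1 CPM.

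elovl3.S (gene10191), the homeolog of elovl3.L by its name in the authors' symbol table, was read at a far lower count. Its libraries held 4 and 5 counts at stage 9 and 71 and 34 at stage 10.5, which is 0.0836 and 0.101 CPM against 2.08 and 0.854 CPM. At stage 11.5 the values were 2.17 and 1.76 CPM, and at stage 12.5 they were 3.30 and 2.07 CPM. The libraries of stage 9 lie apart from all the others, which overlap among themselves. The log2 change of elovl3.S was 3.94 ± 0.63 at the first step (adjusted p 0.00181, edgeR by stage), and neither later step passed the test. It passed the filter on low counts through stages 10.5 to 12.5 alone, so the p of the first step is a description.

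The S copy's share of the counts of the elovl3 pair was even across the last 3 stages. In A and B it was 1.62% and 0.967% at stage 10.5, then 1.48% and 1.51% at stage 11.5, with 1.59% and 1.01% for stage 12.5. At stage 9 the share was 19.0% (exact 95% binomial interval 5.45% to 41.9%) in A and 45.5% (16.7% to 76.6%) in B, from few reads. These intervals and the floor cover counting error only. How reads that fit both copies were assigned is not given in the sources used here, so counts of elovl3.S and reads that stem from elovl3.L cannot be told apart.

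elovl7.L (gene40192) and elovl7.S (gene17312) held most of the family's reads at every stage. In humans ELOVL7 elongates saturated and polyunsaturated acyl chains. elovl7.L was at 73.4 and 55.7 CPM at stage 9 and reached 179 and 165 CPM by stage 10.5. It stood at 251 and 283 CPM at stage 11.5, then at 479 and 451 CPM at stage 12.5. No libraries of neighbouring stages overlap, and the value at stage 12.5 was 6.52 times that at stage 9 within A and 8.10 times within B. elovl7.L rose by 1.42 ± 0.16 on the log2 scale at the first step (adjusted p 0.000379, edgeR by stage) and by 2.85 ± 0.17 from stage 9 to 12.5 (adjusted p 1.43e-05).

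Its later steps depended on the model. From stage 10.5 to 11.5 the log2 change of elovl7.L was 0.63 ± 0.16, with an adjusted p of 0.523 by stage, 0.128 with the block and 0.0099 in DESeq2 with the block. From stage 11.5 to 12.5 it was 0.80 ± 0.16, with an adjusted p of 0.112 by stage and 0.0252 with the block. The whole span from stage 10.5 to 12.5 gave 1.43 ± 0.16 (adjusted p 0.00519 by stage), and without replicate B of stage 10.5 the value was 1.33 with an adjusted p of 0.0538.

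elovl7.S was at 123 and 119 CPM at stage 9 and reached 176 and 144 CPM by stage 10.5. It stood at 219 and 192 CPM at stage 11.5, then at 360 and 305 CPM at stage 12.5. Here too no libraries of neighbouring stages overlap. At the first step the same holds for elovl1.L, elovl5.L and elovl5.S, which were not called there. The log2 change at the first step was 0.40 ± 0.15, with an adjusted p of 0.0635 in edgeR by stage and 0.0125 with the block. From stage 9 to 12.5 elovl7.S rose by 1.46 ± 0.16 (adjusted p 0.000158), and from stage 10.5 to 12.5 by 1.05 ± 0.15 (adjusted p 0.00816). Without replicate B of stage 10.5 this last value was 0.87 with an adjusted p of 0.0894. The step from stage 11.5 to 12.5 gave 0.69 ± 0.15, with an adjusted p of 0.131 by stage and 0.0201 with the block.

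elovl2.L (gene18124) rose from a low level. ELOVL2 extends long polyunsaturated acids in mammals. Its libraries of stage 9 had 0.0418 and 0.141 CPM, those of stage 10.5 had 0.821 and 0.779, those of stage 11.5 had 0.376 and 0.477, and those of stage 12.5 had 1.05 and 0.932, from 2 to 37 counts a library. The libraries of neighbouring stages do not overlap, with stage 11.5 below the stages on either side. The log2 change was 3.08 ± 0.70 at the first step (adjusted p 0.00904, edgeR by stage) and 3.39 ± 0.71 from stage 9 to 12.5 (adjusted p 0.00436). The differences at the later steps did not pass the test. Neither library of stage 9 reached the minimum of the filter on low counts, so both p-values are a description.

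elovl1 and elovl5 showed no difference that passed the test by stage. ELOVL1 elongates saturated and monounsaturated very long chains for sphingolipids in mammals, and ELOVL5 extends polyunsaturated acids. elovl1.L (gene17259) was at 35.2 and 32.1 CPM at stage 9, between 26.6 and 33.1 CPM at stages 10.5 and 11.5, and at 44.1 and 37.3 CPM at stage 12.5. From stage 10.5 to 12.5 its log2 change was 0.50 ± 0.17, with an adjusted p of 0.102 in edgeR by stage and 0.0233 with the block. elovl1.S (gene10535) ranged from 25.3 to 38.8 CPM over the 8 libraries. From stage 9 to 12.5 the 95% interval of the log2 change was -0.13 to 0.68 for elovl1.L and -0.23 to 0.74 for elovl1.S.

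elovl5.L (gene14293) ranged from 24.9 to 31.1 CPM, and its log2 change from stage 9 to 12.5 was -0.05 ± 0.15 with a 95% interval of -0.41 to 0.30. elovl5.S (gene19273) was at 3.47 and 3.68 CPM at stage 9 and at 2.29 in A and 4.74 in B at stage 12.5. At that last stage its libraries stood farther apart than at any other, and the interval of its change over the course was wide, from -0.92 to 0.88.

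The remaining members were close to the floor. elovl4.S (gene14367), whose mammalian counterpart makes the longest chains of skin and retina, had 6 to 18 counts a library, with overlapping libraries at every step. elovl6.L (gene1504), whose counterpart extends the products of fatty acid synthase, had 3 and 0 counts at stage 9, then 16 and 13 by stage 10.5, while stage 11.5 had 5 and 4 and stage 12.5 had 0 and 6. Both stage 9 libraries of elovl6.L are at or under 3 counts. Its mean at stage 10.5 was 6.47 times the mean floor of the stage 9 libraries. elovl6.L passed the filter on low counts through the libraries of stage 10.5 alone, so its tests with that stage are not used. It stays among the members counted below and was not called in edgeR by stage or with the block.

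All 11 members passed the filter on low counts, elovl2.L and elovl3.S through stages 10.5 to 12.5 and with neither library of stage 9 at the minimum of 0.264 CPM. Without elovl3.L there are 10 members, among them elovl2.L, elovl3.S and elovl6.L, whose p at the first step is a description. At that step 3 of the 10 were called, all higher, beside 48.3% of all tested IDs in either direction and 25% called higher. With the block, elovl7.S joined them, at a background of 58.4%, or 30.3% called higher. The median log2 change of the 10 was 0.35 beside 0.11 over all tested IDs. From stage 9 to 12.5, 4 of 10 were called, all higher, beside 60.8% of all IDs, with 31.9% called higher. Nothing is read from these shares about the 10 genes.

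At the step from stage 10.5 to 11.5, edgeR by stage called 0 of 10 members and 0% of all IDs, with 2 members and 2131 of all IDs at an unadjusted p under 0.05. The block called 0 members there and 0.0737% of all IDs, DESeq2 by stage 0 members beside 0.856% of all IDs, and DESeq2 with the block 1 member, elovl7.L, beside 4.33%. From stage 11.5 to 12.5, edgeR by stage called 0 of 11 members and 0% of all IDs, with 4 members and 4246 of all IDs at an unadjusted p under 0.05. The block called 2 members, elovl7.L and elovl7.S, both higher, beside 4.58% of all IDs, with 2.21% called higher. DESeq2 called 2 members there by stage, beside 5.44% of all IDs, and 4 with the block, elovl1.L, elovl3.L, elovl7.L and elovl7.S, beside 12.4%. From stage 10.5 to 12.5, 2 of 10 were called, elovl7.L and elovl7.S, both higher, beside 14.1% of all IDs, with 7.13% called higher. Of all calls in that comparison 50.7% were higher with TMM scaling and 23.6% with scaling by library size alone. With the block, elovl1.L joined them, beside 26.6% of all IDs, with 13.2% called higher.

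In the authors' deposited table for stage 10.5 against stage 9, elovl7.L had a log2 fold change of 1.44 with an adjusted p of 1.37e-09. In the same one of the authors' deposited tables, elovl3.S had 3.52 with an adjusted p of 0.000162 and elovl2.L had 2.65 with an adjusted p of 0.015. Both are given as a description, as these genes were under the minimum of the filter used here at stage 9. The authors' deposited table for stage 12.5 against 11.5 has elovl7.L at 0.72 with an adjusted p of 0.0166 and elovl7.S at 0.62 with an adjusted p of 0.0794. It has elovl3.L at 0.57 with an adjusted p of 0.133, short of the threshold. The step from 11.5 to 12.5 of elovl7.L is thus past the threshold in the authors' deposited table and short of it in edgeR by stage.

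**Figure D2:**
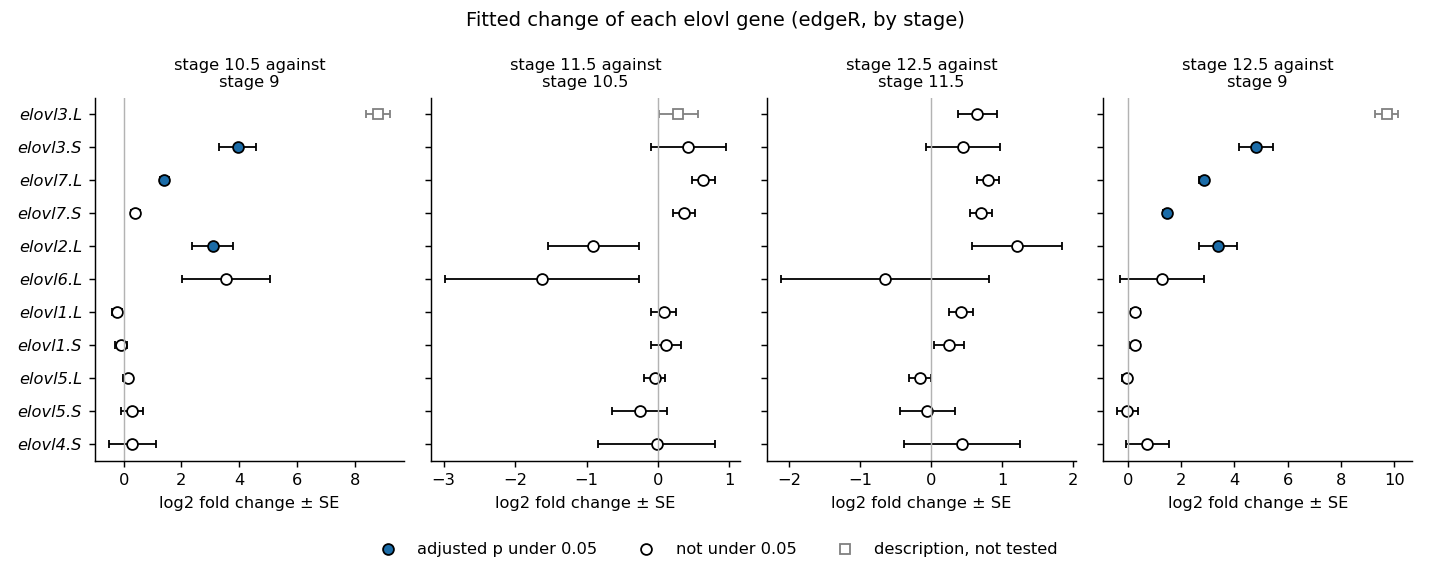
Fitted log2 fold change with its SE (x axis) of each elovl gene (y axis) from edgeR by stage, for neighbouring stages and for stage 12.5 against stage 9. Filled circles mark an adjusted p under 0.05, open circles the rest and open squares the values of elovl3.L that are a description. The circles of elovl6.L in comparisons with stage 10.5, and of elovl2.L and elovl3.S in those with stage 9, are a description as well. The filled circles belong to elovl7.L, elovl7.S, elovl2.L and elovl3.S, and they lie above 0.

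The family's reads shifted toward elovl3 between stage 9 and stage 10.5. The family was picked for the rise of elovl3.L at this step, so this shift follows from the choice and is a description. Summed over the 11 members, the level was 290 and 267 CPM at stage 9 and reached 577 and 486 CPM by stage 10.5. It was 714 and 679 CPM at stage 11.5, then 1160 and 1057 CPM at stage 12.5. The elovl3 pair held 0.151% and 0.0828% of these reads at stage 9 and between 17.2% and 22.2% at every later library. The elovl7 pair kept the largest share throughout, between 61.7% and 72.3%. The share of elovl1 went from 21.0% and 23.6% at stage 9 to 7.15% and 6.26% at stage 12.5, and that of elovl5 from 10.9% in both libraries to 2.50% and 2.80%. These are shares of a sum that rose. Between the same stages the mean of elovl1.L went from 33.7 to 40.7 CPM and that of elovl1.S from 28.4 to 33.9 CPM. The mean of elovl5.L went from 26.8 to 25.8 CPM and that of elovl5.S from 3.58 to 3.51 CPM.

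The S copy's share of the elovl7 pair's counts fell after stage 9. Counts are not corrected for transcript length, and the assignment of shared reads is not given. Which copy has more transcripts was therefore not tested. The S copy held 62.7% and 68.1% of the pair's counts at stage 9 and 49.6% and 46.6% by stage 10.5. It held 46.6% and 40.4% at stage 11.5, then 42.9% and 40.3% at stage 12.5. Both libraries of stage 9 lie above all the others, and S holds more counts than L in these libraries only. The log2 ratio of L to S was -0.91 ± 0.24 (SD, n = 2) at stage 9 and 0.49 ± 0.11 at stage 12.5. The ratio differed among the 4 stages (limma, adjusted p 0.00592 over 4784 pairs of copies, 0.00429 with the block), as it did for 42.9% of all pairs tested.

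For elovl1 and elovl5 the ratio of copies showed no difference among stages that passed the test, with adjusted p of 0.787 and 0.982 in limma. The S copy of elovl1 held between 42.3% and 49.1% of the pair's counts. That of elovl5 held between 10.9% and 13.2% at the first 3 stages, and 7.88% in A against 16.0% in B at stage 12.5, where the libraries differ most.

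**Figure D3:**
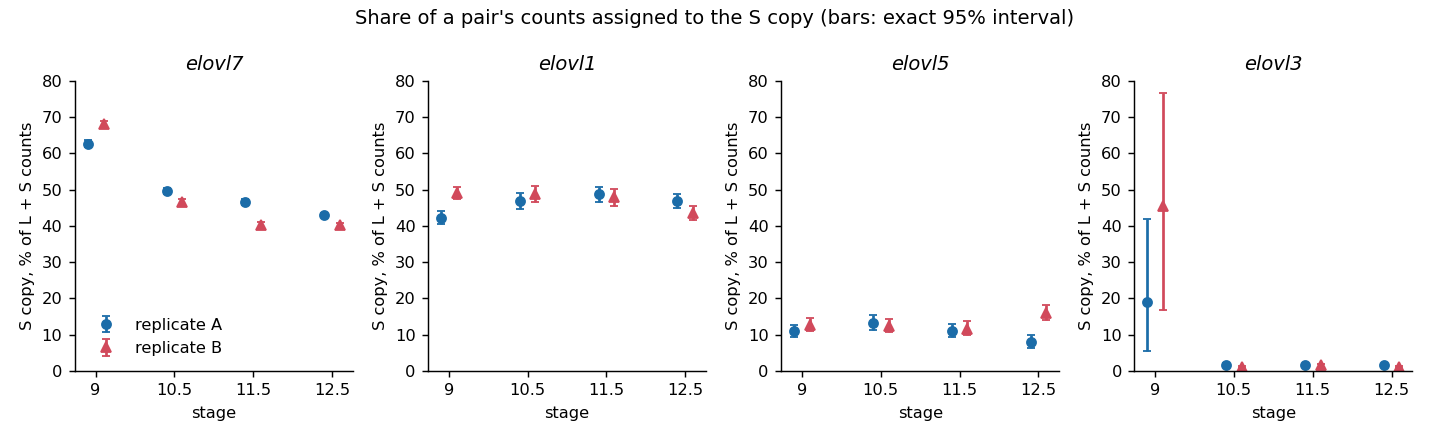
Share of a pair's counts assigned to the S copy (y axis, percent of L plus S counts, from 0) at each stage (x axis) for elovl1, elovl3, elovl5 and elovl7, with circles for replicate A, triangles for replicate B and bars for the exact 95% binomial interval. The share of elovl7.S goes from 62.7% and 68.1% at stage 9 to 42.9% and 40.3% at stage 12.5, and that of elovl3.S stays between 0.967% and 1.62% after stage 9, when both libraries hold few reads of the pair.

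Likeness to elovl3.L was measured as Pearson's r of log2 CPM over the 8 libraries, among 15290 tested genes with a mean of at least 5 CPM. The 8 genes with the highest r were LOC108713056, LOC108701004, cnn1.L, plk2.L, gene48869, elf1.L, loxl1.L and LOC108704162, all at r of 0.998 or 0.999. cnn1 encodes the actin-binding protein calponin, plk2 a kinase of the polo family, elf1 an ETS transcription factor and loxl1 an enzyme that crosslinks collagen and elastin. LOC108713056, first on the list, had stage means of 0.527, 67.3, 86.1 and 139 CPM. In all, 1698 of the 15290 genes had r above 0.95. Over the 6 libraries without stage 9 the r of the 8 genes was 0.79 to 0.98. The points share their library, and no test was made.

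Among the elovl genes, elovl3.S had r of 0.97 with elovl3.L over the 8 libraries, elovl7.L 0.91, elovl2.L 0.90 and elovl7.S 0.75. elovl1.L, elovl1.S, elovl5.L and elovl5.S had r of 0.03 to 0.22. Without stage 9 the order was another, with r of 0.97 for elovl7.S, 0.95 for elovl1.L, 0.90 for elovl7.L, 0.85 for elovl3.S, 0.77 for elovl1.S, 0.43 for elovl4.S and 0.37 for elovl2.L over 6 libraries. Values below 0 were -0.95 for elovl5.L, -0.67 for elovl6.L and -0.47 for elovl5.S.

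The enzymes around the elongases were followed in 10 lists that share some genes. They hold 150 gene IDs, of which 138 were tested. The counts below keep genes whose stage 9 libraries were both under the minimum of the filter on low counts. Among them are fabp3.L, fabp7.L, fa2h.L and cpt2.L, whose p at the first step is a description. Over all tested IDs at the first step 48.3% were called, 25% higher and 23.3% lower, with a median log2 change of 0.11. These shares are the background of the counts of every list at that step in edgeR by stage on all 8 libraries. With the block 58.4% of all tested IDs were called. For fits with a library left out the share over all IDs is not given here, so a smaller count there is not read as a trait of a list. Of the 138 genes, 72 were called at the first step, 31 higher and 41 lower, with a median log2 change of -0.09. Without replicate A of stage 10.5 the count was 45, and without replicate B of that stage it was 46.

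Of 7 tested reductases and dehydratases that complete the elongation cycle, 1 was called, hacd2.S, a dehydratase that fell from 69.1 ± 1.35 to 38.7 ± 7.82 CPM (log2 change -0.84 ± 0.17, adjusted p 0.00616 in edgeR by stage). With the block or with RLE scaling, 2 of the 7 were called, 1 in each direction, and the median of the list was 0.43. Of 8 desaturases, which put double bonds into the acids that elongases extend, 1 was called higher and 2 lower. fads1.S rose from 1.07 ± 0.363 to 3.53 ± 0.405 CPM (1.71 ± 0.35, adjusted p 0.00576), and scd.L, which makes monounsaturated acids, fell from 32.2 ± 2.38 to 14.4 ± 2.55 CPM (-1.16 ± 0.21, adjusted p 0.00356).

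Of 9 genes listed under de novo fatty acid synthesis, 3 were called higher and 2 lower, with a median of 0.41. This route supplies the malonyl unit and the shorter acids, but the list also holds mcat.L, mcat.S and oxsm.S of mitochondrial synthesis. All of these were called, so the counts are not of that supply alone. fasn.L, the fatty acid synthase, was called lower, from 54.7 ± 8.61 to 19.0 ± 0.894 CPM (-1.52 ± 0.21, adjusted p 0.000872 in edgeR by stage). Both extremes of the list act in mitochondrial fatty acid synthesis. mcat.S rose from 4.90 ± 1.14 to 10.9 ± 1.63 CPM (1.15 ± 0.27, adjusted p 0.0101), and oxsm.S fell from 14.9 ± 0.230 to 4.03 ± 0.383 CPM (-1.89 ± 0.25, adjusted p 0.000817). The call of mcat.S was lost without replicate B of stage 9 (adjusted p 0.0554) and without replicate B of stage 10.5 (0.0651). The list's count was 3 without either library of stage 9 or replicate A of stage 10.5, and 2 without replicate B of stage 10.5.

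Of 20 acyl-CoA synthetase and fatty acid uptake genes, 7 were called higher and 3 lower, and 6 were called in all without replicate A of stage 9. fabp7.L, a fatty acid binding protein, had 0 and 1 counts at stage 9 and 32 and 47 at stage 10.5 (adjusted p 0.00196 in edgeR by stage). Its mean at stage 10.5 was 17.2 times the mean floor of the stage 9 libraries. Neither stage 9 library of fabp7.L reached the minimum of the filter on low counts, so its p is a description. The same holds for fabp3.L, at 0.0619 ± 0.0306 CPM at stage 9, and both are among the 7 called higher. slc27a4.S, a fatty acid transporter of the plasma membrane, fell from 16.2 ± 4.82 to 5.13 ± 0.542 CPM (-1.66 ± 0.40, adjusted p 0.0115). Its adjusted p was 0.0613 without replicate A of stage 9, and 0.0508 and 0.0691 without replicate A and B of stage 10.5.

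Sphingolipids take up the longest acyl chains. Of 27 sphingolipid and ceramide genes, 4 were called higher and 11 lower, with a median of -0.31. fa2h.L, which hydroxylates acyl chains for ceramides, rose from 0.163 ± 0.0537 to 3.65 ± 0.270 CPM (4.45 ± 0.35, adjusted p 8.83e-05) and stood at 20.5 ± 4.86 CPM at stage 12.5. It passed the filter on low counts through the stages after stage 9 alone, so its p is a description. ormdl1.S, of a family that restrains serine palmitoyltransferase, fell from 20.5 ± 3.71 to 3.90 ± 0.618 CPM (-2.39 ± 0.29, adjusted p 0.000474).

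Of 17 genes known from the lipid barrier of mammalian epidermis, 5 were called higher and 7 lower, and 6 in all without replicate A of stage 10.5. fa2h.L is in this list too, with the largest rise. abhd5.L, a cofactor of triglyceride lipase, fell from 5.16 ± 0.948 to 0.547 ± 0.151 CPM (-3.23 ± 0.53, adjusted p 0.00211). Of 10 wax and ether lipid genes, 3 were called higher and 2 lower. awat1.L, named for an acyltransferase that makes wax esters in mammals, rose from 2.62 ± 0.0177 to 27.6 ± 0.683 CPM (3.39 ± 0.21, adjusted p 4.52e-05), and gnpat.S, which starts ether lipid synthesis in peroxisomes, fell from 45.9 ± 2.14 to 6.82 ± 0.556 CPM (-2.75 ± 0.37, adjusted p 0.000832).

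Breakdown of fatty acids was covered by 2 lists. Of 12 peroxisomal genes, where very long chains are shortened, 2 were called higher and 4 lower, and 3 in all without replicate A of stage 10.5. abcd2.S, a transporter of acyl-CoA, rose from 0.366 ± 0.222 to 1.29 ± 0.00669 CPM (1.80 ± 0.61, adjusted p 0.0429), a call lost with scaling by library size alone (0.0535) and without replicate A of stage 9 (0.162), either library of stage 10.5 (0.128 and 0.116) or either of stage 11.5 (0.073 and 0.0714). acox2.L, an acyl-CoA oxidase, fell from 33.1 ± 3.17 to 3.24 ± 0.602 CPM (-3.35 ± 0.47, adjusted p 0.00102).

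Of 19 mitochondrial genes of beta-oxidation, 8 were called higher and 1 lower, with a median of 0.34. The count in all was 4 without either library of stage 9 and 3 without either of stage 10.5. cpt2.L had 2 and 1 counts at stage 9 and 8 and 6 at stage 10.5 (adjusted p 0.0439 in edgeR by stage). Its mean at stage 10.5 was 3.13 times the mean floor of the stage 9 libraries. The call was lost when any single library was left out, with log2 changes of 2.11 to 3.07. It was also lost with scaling by library size alone (adjusted p 0.0511) and with no filter (0.102). DESeq2 gave an adjusted p of 0.0857 by stage and 0.0561 with the block. No library of cpt2.L at stage 9 or stage 10.5 reached the minimum of the filter on low counts, so its p is a description. The copies of cpt1a, the gate of acyl chains into mitochondria, went in opposite directions. cpt1a.S fell from 18.5 ± 1.96 to 6.81 ± 0.212 CPM (-1.44 ± 0.30, adjusted p 0.00606 in edgeR by stage). cpt1a.L rose from 13.8 ± 1.69 to 41.3 ± 8.08 CPM (1.58 ± 0.18, adjusted p 0.000388).

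Most regulators of sterol and fatty acid genes fell at the first step. Of 19 tested, 13 were called lower and 0 higher, and 18 had a fitted change below 0, with a median of -1.13 beside 0.11 over all tested IDs, of which 23.3% were called lower. With the block 15 were called lower, beside 8019 of the 28490 tested IDs. The count was smaller when either library of stage 9 or of stage 10.5 was left out. srebf2.L, a transcription factor of sterol synthesis genes, fell from 81.1 ± 4.84 to 9.54 ± 1.92 CPM (-3.09 ± 0.20, adjusted p 4.62e-05). The germ plasm and oocyte marker list, whose summed level was 1345 and 1397 CPM at stage 9, was at 685 and 603 CPM at stage 10.5, and its part in these values was not tested.

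At each of the later steps, 0 of the 138 genes were called in edgeR by stage. With the block, 5 were called from stage 11.5 to 12.5: acsl1.S, fa2h.L and cpt1a.L higher, cers3.L and cers3.S lower. From stage 10.5 to 12.5, 13 were called by stage and 23 with the block, and 0 without replicate B of stage 10.5. From stage 9 to 12.5, 90 were called, 38 higher and 52 lower, beside 60.8% of all tested IDs. From stage 10.5 to 12.5 the share of all IDs called was 14.1% by stage and 26.6% with the block. From stage 11.5 to 12.5 it was 4.58% with the block. Nothing is read from these counts about the 138 genes.

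**Figure D4:**
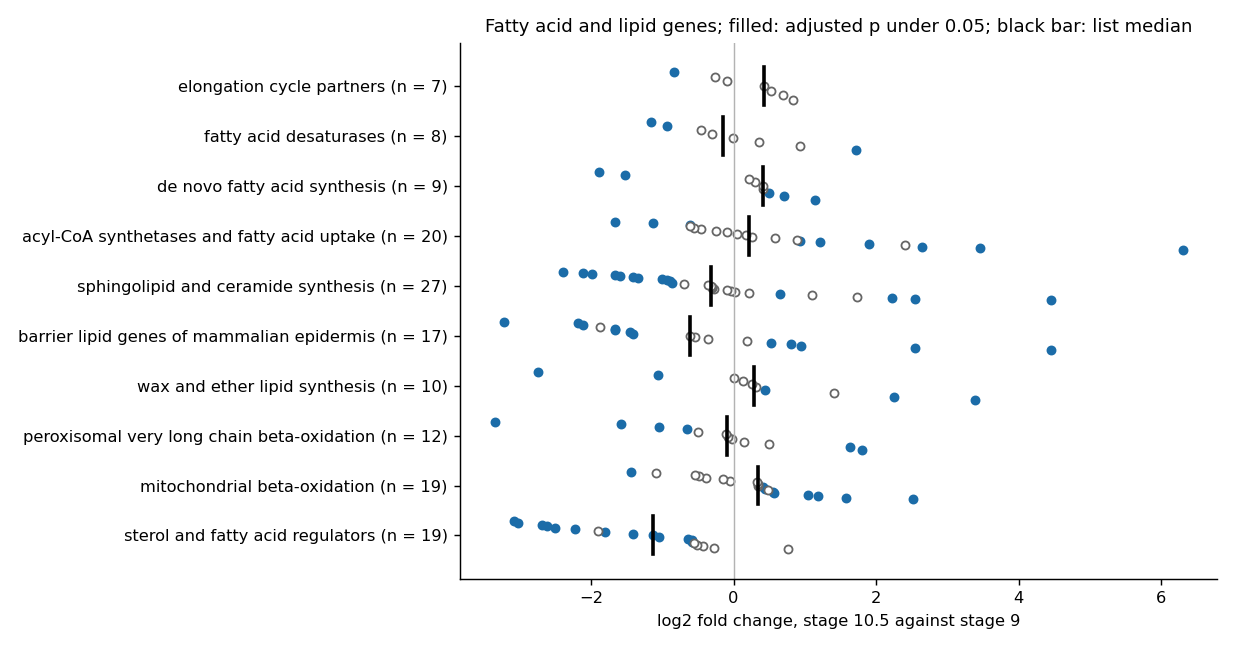
Fitted log2 fold change from stage 9 to stage 10.5 (x axis) of each tested gene in the 10 lists (y axis, with the number tested), filled where the adjusted p was under 0.05 in edgeR by stage, with a black bar at each list's median. The list of regulators lies farthest to the left, with a median of -1.13 and 18 of 19 genes below 0.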

How the data were processed

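The authors deposited whole-number read counts per gene ID for 8 libraries, not normalized. The submitters' processing notes list FastQC 0.11.5, STAR 2.6.0b-1, featureCounts 1.6.3 and DESeq2 1.22.1. The genome build and annotation are not given in the sources used here. The library kit does not mark strand. The authors also deposited, for each step between neighbouring stages, log2 fold changes with standard errors, p-values and adjusted p-values. Members and gene lists were chosen with earlier results of these data known.

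Counts were tested in R 4.3.3 with edgeR 4.0.16: filterByExpr by stage (28490 of 51017 IDs kept), TMM scaling (factors 0.818 to 1.12), and the quasi-likelihood F test by stage on all 8 libraries (4 residual degrees of freedom), adjusted by Benjamini-Hochberg over all tested IDs and called under 0.05. Standard errors came from the F statistic. The ratio of homeologs was tested with limma 3.58.1 on log2(CPM + 1) differences. All tests were two-sided. Alternatives were other scalings, no filter, DESeq2 1.42.0, each library left out, and the replicate letter as a block. The letters pair the libraries: deviations from the stage means correlated at all 6 pairs of stages (r 0.374 to 0.597), and with the block 3 residual degrees of freedom remain.

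Values are given by library for elovl3.L, elovl3.S and every elovl gene called in at least 1 comparison, and by range or in brief for the rest. Of each pathway list, the called genes with the largest rise and fall at a step are named, with fasn.L and cpt1a.L besides. The genes most like elovl3.L are the 8 with the highest r.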

Additional observations from a re-analysis of the deposited data

How the results depend on the processing

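Of the values of single elovl genes under the alternatives, 672 kept their direction and their side of the threshold, 17 passed it newly, 2 lost their call and 23 changed sign, none of them called before or after. The calls of elovl7.L at the first step and over the whole course held under every alternative run. Those of elovl2.L and elovl3.S in the same comparisons are a description under any setting. Neither gene reached the minimum of the filter on low counts in the libraries of the earliest stage.

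With scaling by library size alone the median of all genes moved from 0.00031 to -0.14 from stage 10.5 to 11.5, from 0.0025 to -0.16 from stage 11.5 to 12.5, from -0.00016 to -0.30 from stage 10.5 to 12.5 and from 0.13 to -0.19 from stage 9 to 12.5. The share of calls that were higher went from 52.5% to 44.1% in the last of these comparisons. There the log2 changes were -0.0495 for elovl1.L and -0.022 for elovl1.S from stage 10.5 to 11.5, and -0.0524 and -0.078 from stage 9 to 12.5. The lipid lists then had 20 calls from stage 10.5 to 12.5, a count given without the share over all tested IDs in that fit. From stage 9 to 12.5, elovl5.S was at 0.031 with RLE scaling and 0.034 with DESeq2 by stage.

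Without a filter, 41 of all genes were called from stage 10.5 to 11.5, and from stage 11.5 to 12.5 the calls were 605 of all genes, 1 elovl gene and 2 genes of the lipid lists. With the replicate block, the calls from stage 10.5 to 11.5 were 21 of all genes. From stage 11.5 to 12.5 it called 1306 of all genes, 2 elovl genes and 5 lipid genes, and from stage 10.5 to 12.5 it called 7569 and 23 lipid genes. In the edgeR test of any difference among the 4 stages, the block also called elovl1.L (adjusted p 0.0312, against 0.132 by stage). Beyond this and the calls given with the block in the report, the block changed no other call of an elovl gene that was tested. DESeq2 by stage called 244 of all genes from stage 10.5 to 11.5, 1550 and 2 elovl genes from stage 11.5 to 12.5, and 6195 from stage 10.5 to 12.5. DESeq2 with the replicate block called 1233 and 1 elovl gene, 3536 and 4 elovl genes, and 8893, in the same order.

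With each library left out in turn, calls of all genes ranged from 0 to 5 from stage 11.5 to 12.5 and from 162 to 3388 from stage 10.5 to 12.5. Those of elovl genes ranged from 0 to 2 from stage 10.5 to 12.5, and those of the lipid lists from 45 to 70 at the first step and from 0 to 10 from stage 10.5 to 12.5. Log2 changes at the first step ranged from -0.23 to 0.032 for elovl1.S and from -0.22 to 1.14 for elovl4.S. From stage 10.5 to 11.5 they ranged from -0.056 to 0.20 for elovl1.L, from -0.043 to 0.25 for elovl1.S, from -0.11 to 1.21 for elovl3.S, from -0.57 to 0.38 for elovl4.S and from -0.11 to 0.0022 for elovl5.L. From stage 11.5 to 12.5 they ranged from -0.020 to 0.99 for elovl4.S, from -0.68 to 0.37 for elovl5.S and from -5.34 to 0.24 for elovl6.L. From stage 10.5 to 12.5 they ranged from -0.035 to 0.74 for elovl4.S and from -0.93 to 0.11 for elovl5.S, and from stage 9 to 12.5 from -0.65 to 0.39 for elovl5.S and from -3.42 to 4.62 for elovl6.L. Fitted values of elovl6.L with a lone library at 0 counts depend on the prior count. A lone library is taken to vary like the other stages. The cause of these shifts was not tested.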

Other observations

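In 4 of the 40 pairs of copies in the lipid lists, the copies were called in opposite directions from stage 9 to 10.5, beside 2.91% of the 4784 pairs tested. These pairs were chosen after their values were seen. fa2h.L rose by 4.45 ± 0.35 on the log2 scale and fa2h.S changed by -1.66 ± 0.46. cpt1a.L rose by 1.58 ± 0.18 and cpt1a.S changed by -1.44 ± 0.30. For acsl3, an acyl-CoA synthetase, the values were 0.94 ± 0.19 for L and -0.61 ± 0.12 for S, and for sptlc2, a subunit of serine palmitoyltransferase, 0.65 ± 0.14 and -0.90 ± 0.18. The adjusted p of these 8 genes lay between 8.83e-05 and 0.0205 in edgeR by stage. That of fa2h.L is a description, as its stage 9 libraries were under the minimum of the filter. The count of 4 was 2 without replicate A of stage 9 and without replicate A of stage 10.5, and 1, cpt1a, without replicate B of stage 10.5.

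Neighbours of elovl3.L in the RefSeq annotation Xenopus_laevis_v10.1 were looked at after the values were seen. gbf1.L fell by 0.89 on the log2 scale at the first step (adjusted p 0.00126) and nolc1.L rose by 0.50 (adjusted p 0.0121). LOC108696244 fell by 2.39 (adjusted p 0.0352), at a mean of 0.862 CPM at stage 9 and 0.161 CPM at stage 10.5. An ID outside the naming rule, LOC108704446, carries the symbol elovl2.S in that annotation and held between 0 and 6 counts a library. Of the 11 members, 9 have their symbol in that annotation. The symbols elovl3.S and elovl6.L are not found there, so these names rest on the authors' symbol table.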
